A study of Homo sapiens with 4 samples.

Results

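MHC class I presentation is described here through 9 genes measured by RNA-seq in 4 human leukemia cell lines: HLA-B, HLA-C, HLA-E, B2M, TAP1, TAP2, TAPBP, PSMB8 and NLRC5. They were chosen by symbol, with earlier results of these data known, from the 23,368 entries of the count table. All 9 passed the filter on low counts that left 13,844 genes to test. The lines are models of precursor-B acute lymphoblastic leukemia, each an established line from a leukemia of its own. The translocation t(4;11), which joins the MLL gene to AFF1, is present in RS4;11 and SEM (the translocation lines). It is absent from NALM6 and REH, called the control lines. No treatment is named for any of them, and all 4 grew in RPMI medium with 10% serum, and each gave 1 library from 1 μg of total RNA, so a group is 2 lines. A difference between the groups therefore includes every other difference between these 4 leukemias.

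Class I molecules show peptides from inside the cell to CD8 T cells. A heavy chain (HLA-B, HLA-C or HLA-E) pairs with the light chain B2M, the proteasome cuts proteins into peptides, the TAP1 and TAP2 transporter carries peptides into the endoplasmic reticulum, and tapasin (TAPBP) bridges the transporter and the empty heavy chain. Interferon exchanges catalytic proteasome subunits for immunoproteasome subunits such as PSMB8, and NLRC5 is a transcriptional coactivator of the class I genes that acts at a shared promoter module with a cyclic-AMP response-like element and a CCAAT (Y) box.

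The class I heavy chains HLA-B and HLA-C, the transporter genes TAP1 and TAP2 and the immunoproteasome gene PSMB8 stood below both controls in each of RS4;11 and SEM, TAPBP did not, and HLA-E and B2M were lower by smaller ratios. Levels below are CPM, the count of a gene scaled to a common total by the summed gene counts of its library, which lay between 33,620,574 (SEM) and 84,212,986 (REH). By this measure 7 of the 9 genes were lower in both translocation lines and 2, TAPBP and NLRC5, overlapped between the groups. Of all genes tested, 28.3% were lower in both translocation lines on this scale and 19% were higher in both. After scaling by trimmed means (TMM), which corrects for differences in library make-up, 6 of the 9 were lower in both against 23.4% of all genes, because HLA-E then overlapped. B2M was among the 6 only narrowly, at 1107 CPM in RS4;11 against 1113 CPM in NALM6 after TMM scaling. TMM scaling moved the median log2 fold change of all genes from -0.12 with column sums to -0.02, so levels by column sum run slightly low in the translocation lines. Group differences are given as log2FC, the log2 fold change of t(4;11) over control after TMM scaling, with edgeR's p adjusted over all genes tested.

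Before the results, the lines were checked against markers. All 9 B-precursor markers examined reached at least 1 CPM in some line, and their summed level ran from 1211 CPM (SEM) over 2140 CPM (RS4;11) and 2530 CPM (NALM6) to 2634 CPM (REH). BLNK was near 0 in SEM (0.178 CPM) and VPREB1 in REH (0.226 CPM). CD3D, CD3E and CD3G of T cells, HBA1 and HBB of red cells, FCN1 of monocytes and COL1A2 and DCN of stroma had 0 counts in every line, which allows levels of up to 0.0356 CPM (REH) to 0.0892 CPM (SEM). The summed level of the 6 T and NK markers was 26.1 CPM for RS4;11, 11.2 CPM for SEM, 0.981 CPM for NALM6 and 1.51 CPM for REH, nearly all of it NKG7 in the first pair. The 5 myeloid markers gave 15.1, 48.6, 11.4 and 8.13 CPM in that order. The 6 stromal and epithelial markers summed to 0.245 to 4.16 CPM, and the 3 erythroid markers to at most 0.0193 CPM. Any part of these in the class I differences was not tested.

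Promoter sequences are shown for HLA-B, HLA-C, B2M and TAP1, chosen after the group differences were seen. The first 3 encode heavy chains and the light chain that pairs with each of them, and their log2FC estimates differed. The intervals of these 3 overlap, and no test compared the genes. TAP1 had the largest log2FC in size of the 9. The RefSeq promoter table (GRCh38.p14) held 9 windows for 7 of the 9 genes, with 2 windows each for TAP1 and PSMB8. HLA-E and NLRC5 were not matched. Each window is the 250 bases before the annotated start, written 5′ to 3′ on the gene's strand, and for TAP1 the window before its upstream start is given. Capitals mark matches, on either strand, to 4 motifs: GAAA and GAAA with 2 bases between them (interferon response-like), GGGA and CC with 4 bases between them (kappaB-like), CCAAT (read as ATTGG on the other strand) and TGACG (cyclic-AMP response core). Capitals run together where matches overlap or touch.
HLA-B (chr6:31357180-31357429, minus strand): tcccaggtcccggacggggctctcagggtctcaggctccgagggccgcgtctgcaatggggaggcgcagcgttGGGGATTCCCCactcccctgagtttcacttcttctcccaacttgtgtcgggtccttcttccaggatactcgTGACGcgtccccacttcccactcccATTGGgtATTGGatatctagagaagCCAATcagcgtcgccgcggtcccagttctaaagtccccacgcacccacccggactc
HLA-C (chr6:31272093-31272342, minus strand): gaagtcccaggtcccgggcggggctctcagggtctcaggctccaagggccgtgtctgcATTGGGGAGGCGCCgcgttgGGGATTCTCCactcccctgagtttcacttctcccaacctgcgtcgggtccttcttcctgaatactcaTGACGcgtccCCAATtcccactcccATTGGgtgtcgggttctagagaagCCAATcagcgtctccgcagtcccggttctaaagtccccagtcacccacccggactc
B2M (chr15:44711267-44711516, plus strand): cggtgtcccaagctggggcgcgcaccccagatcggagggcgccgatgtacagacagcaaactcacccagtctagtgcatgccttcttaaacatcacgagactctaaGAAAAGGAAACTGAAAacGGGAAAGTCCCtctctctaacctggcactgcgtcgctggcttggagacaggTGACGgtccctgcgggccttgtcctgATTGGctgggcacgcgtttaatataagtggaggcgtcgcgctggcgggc
TAP1 (chr6:32853705-32853954, minus strand): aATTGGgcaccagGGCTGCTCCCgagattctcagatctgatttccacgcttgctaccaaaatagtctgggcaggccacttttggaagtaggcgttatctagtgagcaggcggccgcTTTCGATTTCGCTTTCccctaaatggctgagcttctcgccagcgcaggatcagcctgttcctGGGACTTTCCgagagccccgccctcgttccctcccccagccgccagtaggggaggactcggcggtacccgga

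The HLA-B and HLA-C windows were 91.9% identical over 246 aligned bases. Both had TGACG followed by ATTGG after a gap of 20 bases, and B2M had the same pair of letters with a gap of 21 bases. That arrangement, with a gap of 15 to 30 bases on either strand, was present in 0.527% of the 35,116 promoter windows of the table and in none of the windows of TAP1, TAP2, TAPBP and PSMB8. The interferon response-like motif was found in 3.02% of all windows. Here it was present in B2M, the TAP1 window shown, TAP2 and TAPBP and not in the windows of HLA-B, HLA-C and PSMB8. The search took the exact letters only, so a near match was not counted. The lack of a match thus does not show that HLA-B, HLA-C or PSMB8 lacks such an element. The kappaB-like motif was in 22.6% of all windows, CCAAT in 32% and TGACG in 21.2%. The log2FC was -0.91 for HLA-B, -0.75 for HLA-C and -0.26 for B2M. A match of letters is a description and does not show that a factor binds.

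HLA-B is a classical heavy chain. RS4;11 held 447 CPM of it and SEM 406 CPM, whereas NALM6 held 852 CPM and REH 869 CPM. The 2 lines of each group lay close together and the groups were well apart, at 426 ± 28.98 CPM against 860.4 ± 11.8 CPM (SD, n = 2 lines each). The ratio of the group means was 2.02. HLA-B had a log2FC of -0.91 (SE 0.17, 95% interval -1.41 to -0.41), with an unadjusted p of 0.00764 and an adjusted p of 0.313 by edgeR's quasi-likelihood test. It did not pass the threshold of 0.05 after Benjamini-Hochberg adjustment over all genes.

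HLA-C is a classical heavy chain that also engages killer-cell receptors. It reached 408 CPM in NALM6 and 392 CPM in REH, with SEM at 265 CPM and RS4;11 at 179 CPM. The controls were nearly equal, while RS4;11 stood below SEM. The log2FC of HLA-C was -0.75 (SE 0.25, interval -1.45 to -0.05, adjusted p = 0.403 by edgeR), and -0.50 without RS4;11.

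HLA-E is a nonclassical heavy chain that presents leader peptides of other class I chains to NK receptors. REH stood at 375 CPM, NALM6 at 369.6 CPM, RS4;11 at 339.6 CPM and SEM at 312 CPM. The highest line was 1.20 times the lowest, the narrowest spread of the 9 genes. For HLA-E the log2FC was -0.09 (SE 0.16, interval -0.54 to 0.36, adjusted p = 0.856 by edgeR), and it was -0.16 without RS4;11 and -0.0059 without SEM.

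B2M is the light chain of these molecules. REH stood at 1486 CPM, NALM6 at 1156 CPM, RS4;11 at 1055 CPM and SEM at 997 CPM. REH stood above the other lines, and NALM6 was only slightly above RS4;11. The log2FC was -0.26 (SE 0.23, interval -0.92 to 0.40, adjusted p = 0.689 by edgeR), with -0.43 without NALM6 and -0.07 without REH.

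**Figure D1:**
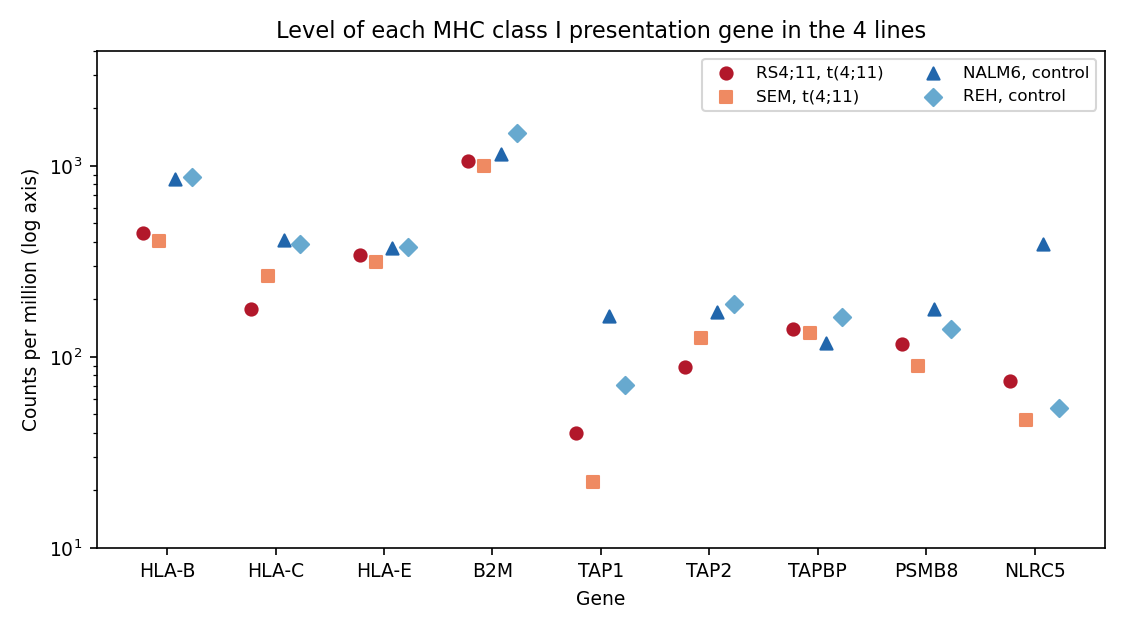
Level of each of the 9 genes (x axis) in CPM on a log axis (y axis), 1 point per line, with translocation lines in red and orange and control lines in blue. HLA-B, HLA-C, TAP1, TAP2 and PSMB8 have both translocation lines below both controls, and NLRC5 is high only in NALM6 (389 CPM).

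TAP1 forms the peptide transporter together with TAP2. NALM6 held 163.5 CPM of TAP1 and REH 71.3 CPM, and the translocation lines held less, 39.98 CPM (RS4;11) and 22.2 CPM (SEM). The groups did not overlap, but the lines differed within both groups: NALM6 was 2.29 times REH, and RS4;11 was 1.7995 times SEM. TAP1 had a log2FC of -1.81 (SE 0.57, interval -3.44 to -0.17, adjusted p = 0.399 by edgeR). It was -1.09 without NALM6 (adjusted p = 0.413 by edgeR), -2.29 without REH, -1.43 without SEM and -2.30 without RS4;11.

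TAP2 stood at 189 CPM in REH and 171 CPM in NALM6, with SEM at 125 CPM and RS4;11 at 88.1 CPM. The order of the lines within each group was the opposite of that of TAP1. TAP2 had a log2FC of -0.66 (SE 0.23, adjusted p = 0.415 by edgeR), with an interval whose upper end lay at -0.00016, and the value was -0.43 without RS4;11.

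TAPBP encodes tapasin. REH stood highest at 162 CPM, then RS4;11 (139.7 CPM), SEM (133 CPM) and NALM6 (118 CPM). Both translocation lines lay between the controls. Its log2FC of 0.06 (SE 0.23, interval -0.58 to 0.71, adjusted p = 0.934 by edgeR) turned to -0.039 with column sums in place of TMM and to -0.15 without NALM6.

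PSMB8 is the immunoproteasome subunit also called LMP7. NALM6 stood at 177 CPM, REH at 141 CPM, RS4;11 at 117 CPM and SEM at 89.9 CPM. The lines kept the order seen for TAP1, whose locus is next to it, with a narrower range: the highest line was 1.97 times the lowest, against 7.36 times for TAP1. PSMB8 had a log2FC of -0.51 (SE 0.24, interval -1.19 to 0.17, adjusted p = 0.5002 by edgeR), -0.34 without NALM6 and -0.31 without SEM.

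NLRC5, the coactivator, stood at 389 CPM in NALM6, with RS4;11 at 74.7 CPM, REH at 53.6 CPM and SEM at 46.5 CPM. NALM6 alone was high, at 7.25 times REH, and REH lay between the translocation lines. The log2FC of -1.76 (SE 1.04, interval -4.73 to 1.22, adjusted p = 0.568 by edgeR) became 0.28 without NALM6 (adjusted p = 0.759 by edgeR) and -2.58 without REH. REH, whose NLRC5 lay near that of the translocation lines, had HLA-B and HLA-C levels near those of NALM6: the ratio of NALM6 to REH was 0.981 for HLA-B and 1.04 for HLA-C. For TAP1 that ratio was 2.29 and for PSMB8 1.26. It was below 1 for HLA-E (0.986), TAP2 (0.905), B2M (0.778) and TAPBP (0.726). Any link between NLRC5 and these levels was not tested.

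Across the 9 genes the median log2FC was -0.66, beside -0.02 over all genes tested. None of the 9, and 0 of the 13,844 genes (0%), passed edgeR's quasi-likelihood test after adjustment, with 1668 of all genes at an unadjusted p under 0.05. At an unadjusted p under 0.05, HLA-B, HLA-C, TAP1 and TAP2 were lower, 4 of the 9, where 5.87% of all genes were. Because the 9 were chosen with earlier results of these data known, the contrast with all genes is a description only. DESeq2 on the same counts called HLA-B (adjusted p = 5.30e-07) and TAP1 (adjusted p = 0.0396) lower. It called 8.65% of its 18,416 genes with any count, and 4.28% lower. Those 18,416 include genes that it gave no adjusted p and so could not call. EdgeR's exact test called 0 of the 9, where it called 3.19% of all genes and 1.16% lower. With 2 lines a group, the p-values rest on the spread between these lines together with variance information shared across genes. In the quasi-likelihood test these gave 2 residual and 1.75 prior degrees of freedom. No p-value covers a spread beyond these 4 lines. Counting error was small beside the larger group differences: the 9 genes had from 747 reads (TAP1 in SEM) to 125,129 reads (B2M in REH), a counting error of 3.66% to 0.283%. It was not small beside the narrowest gaps after TMM scaling, between RS4;11 and NALM6. There B2M had 1107 and 1113 CPM, and HLA-E 356.3 and 355.9 CPM. These errors cover counting only.

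**Figure D2:**
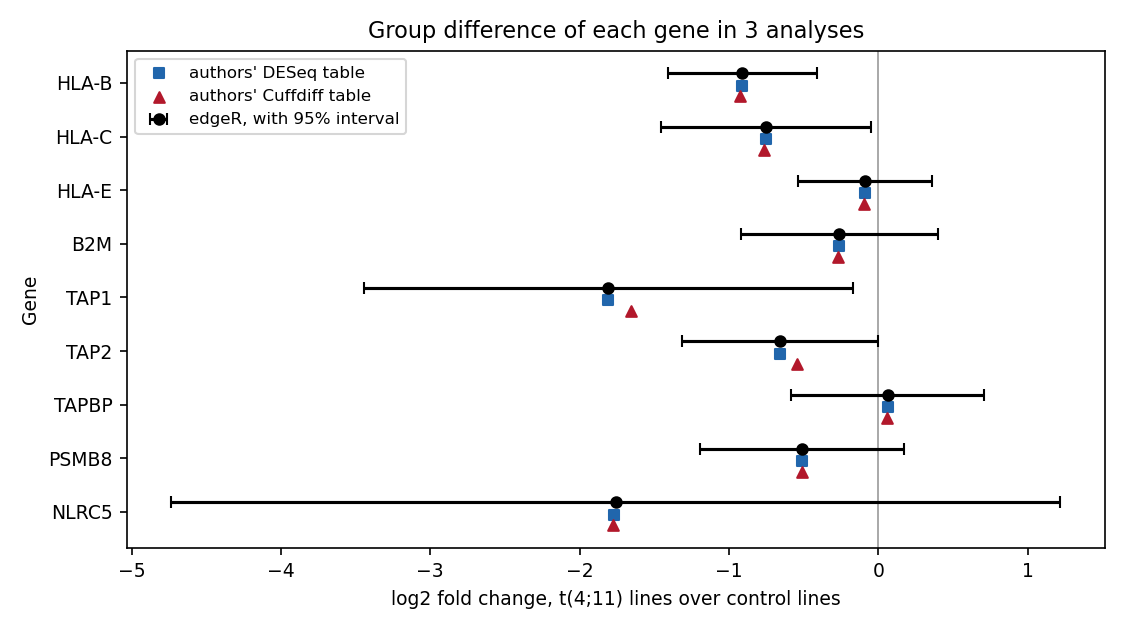
log2 fold change (log2FC) of t(4;11) over control lines (x axis) for each gene (y axis), from edgeR with its 95% interval (black), from the authors' deposited DESeq table (blue squares) and from their deposited Cuffdiff table (red triangles). The 3 values of a gene lie close together, and the edgeR intervals of HLA-B, HLA-C, TAP1 and TAP2 lie below 0, that of TAP2 only just.

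The authors' deposited tables gave similar sizes and 1 call. In the authors' deposited DESeq table none of the 9 was called at an adjusted p under 0.05, where 1.56% of all genes were called and 0.63% called lower, and the smallest adjusted p was 0.653 for HLA-B. In the authors' deposited Cuffdiff table NLRC5 was called lower in the translocation group (log2FC -1.78, q = 0.0295), where 1.11% of its tested genes were called lower and 1.23% higher. That call fell on the gene whose control lines differed most from each other and whose groups overlapped. For TAP1 the authors' deposited DESeq table had a log2FC of -1.81 and the authors' deposited Cuffdiff table one of -1.65 (q = 0.454).

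Between genes, levels can be compared only per length, in the authors' deposited Cuffdiff table, which gives 1 FPKM value (fragments scaled by transcript length and library size) for each group and no spread. In the authors' deposited Cuffdiff table B2M led both groups, with 1268 FPKM in the translocation group and 1525 FPKM in the controls. HLA-B followed with 319.9 and 608 FPKM, then HLA-C with 161 and 275 FPKM. HLA-E had 132 and 141 FPKM, so it ranked above PSMB8 (106 FPKM) in the translocation group and below it (151 FPKM) in the controls, all per the authors' deposited table. That control rank need not hold in each control line. PSMB8 stood at 177 CPM in NALM6 and 141 CPM in REH, whereas HLA-E was nearly equal in them (369.6 and 375 CPM). TAP1 had 15.05 and 47.3 FPKM there, TAP2 24.1 and 35.1 FPKM, TAPBP 39.4 and 37.9 FPKM and NLRC5 9.16 and 31.4 FPKM. In these group values TAP1 stood below TAP2 and TAPBP in the translocation group and above both in the controls, an order whose error is unknown. The 2 control lines differed here. The log2 ratio of TAP1 to TAP2 counts was -0.07 in NALM6 and -1.41 in REH, beside -1.14 in RS4;11 and -2.49 in SEM. REH thus lay between the translocation lines, so the order of the control group need not hold in REH.

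The placement of the genes limits these levels. Of the 9 genes, 7 lie in the MHC on chromosome 6, and the authors' deposited Cuffdiff table put all 7 on alternative haplotype sequences of hg19, which are near-identical copies of the region. There HLA-B was at 2655408 to 2658748 and HLA-C at 2570005 to 2573382 of the haplotype ssto, HLA-E at 1789473 to 1794272, and TAP2 at 4220533 to 4237318. TAP1 and PSMB8 shared 1 locus with another gene, LOC100507463, at 4239267 to 4252521, so their reads may not be fully separated. TAPBP was on the haplotype qbl at 4499712 to 4514410. B2M, at 45003685 to 45010357 of chromosome 15, and NLRC5, at 57050986 to 57117436 of chromosome 16, were on the reference chromosomes. In all, 238 of 23,284 genes of that table had a haplotype locus, 211 of them on chromosome 6. How reads that match several copies were counted is not given in the sources used here, and HLA genes also differ between lines in sequence. The part of either in the differences was not tested. Summing HLA-B, HLA-C and HLA-E to 1 row before the fit gave a log2FC of -0.64 (SE 0.19, adjusted p = 0.381 by edgeR).

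The mean CPM divided by the deposited FPKM gives a rough length over which the reads were spread. This quotient also holds any difference in library scaling between the 2 programs. It was higher in the controls for every gene, so small distances from an annotated length are not read as length. In proportion, the step between the groups was larger for TAP1 and TAP2 than for the other genes, and its cause was not tested. The quotient was 1.33 kb (t(4;11)) and 1.41 kb (controls) for HLA-B, whose longest annotated coding transcript is 1.55 kb. For HLA-E it was 2.47 and 2.64 kb against 2.60 kb. For NLRC5, on a reference chromosome, it was 6.62 and 7.06 kb against 6.82 kb. For HLA-C it was 1.38 and 1.46 kb against 1.55 kb, and for TAPBP 3.45 and 3.69 kb against 3.76 kb. It lay further below the longest transcript for TAP2 (4.41 and 5.12 kb against 5.68 kb), TAP1 (2.07 and 2.48 kb against 2.96 kb) and PSMB8 (0.979 and 1.05 kb against 1.35 kb). B2M, also on a reference chromosome, was the farthest from it in proportion, at 0.809 and 0.866 kb against 1.71 kb. Reads lost by both programs alike would not show in this comparison.

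The other genes placed on chromosome 6 haplotypes also leaned lower. There were 131 such genes among those tested, apart from the 7, with a median log2FC of -0.31. In CPM by column sum 57 (43.5%) were below both controls in RS4;11 and SEM and 13 (9.92%) were higher in both, beside 28.3% and 19% of all genes. After TMM scaling the counts were 52 (39.7%) and 18 (13.7%), beside 23.4% and 24.2%. These 131 genes are not unrelated to antigen presentation. They include HLA-F, MICA, MICB and PSMB9, which are also in the lists below, and class II genes such as HLA-DRA and HLA-DPA1.

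Ratios of 2 genes within a line do not depend on library scaling, and 6 were computed, chosen after the values were seen. The log2 ratio of HLA-B to HLA-E counts was 0.40 in RS4;11 and 0.38 in SEM against 1.20 in NALM6 and 1.21 in REH. HLA-B thus differed more than HLA-E in every line pairing across the groups, by a mean of -0.82. The log2 ratio of PSMB8 to PSMB5, the constitutive subunit it replaces, was 1.18 (RS4;11) and 0.74 (SEM), with 1.69 (NALM6) and 1.795 (REH). That of PSMB9 to PSMB6, another such exchange pair, was -0.63 and -1.21 against 0.50 and 0.52. All 3 ratios separated the groups. For HLA-B over B2M the values were -1.24 and -1.30 against -0.44 and -0.77. TAP1 over TAP2 overlapped, at -1.14 and -2.49 against -0.07 and -1.41, as did NLRC5 over B2M, at -3.82 and -4.42 against -1.57 and -4.79. An exact two-sided permutation test over the 4 lines gave p = 0.333 for each of the 4 that separated, the smallest value that 2 lines against 2 allow, 0.667 for TAP1 over TAP2 and 1 for NLRC5 over B2M. Benjamini-Hochberg adjusted values were 0.5, 0.8 and 1.

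**Figure D3:**
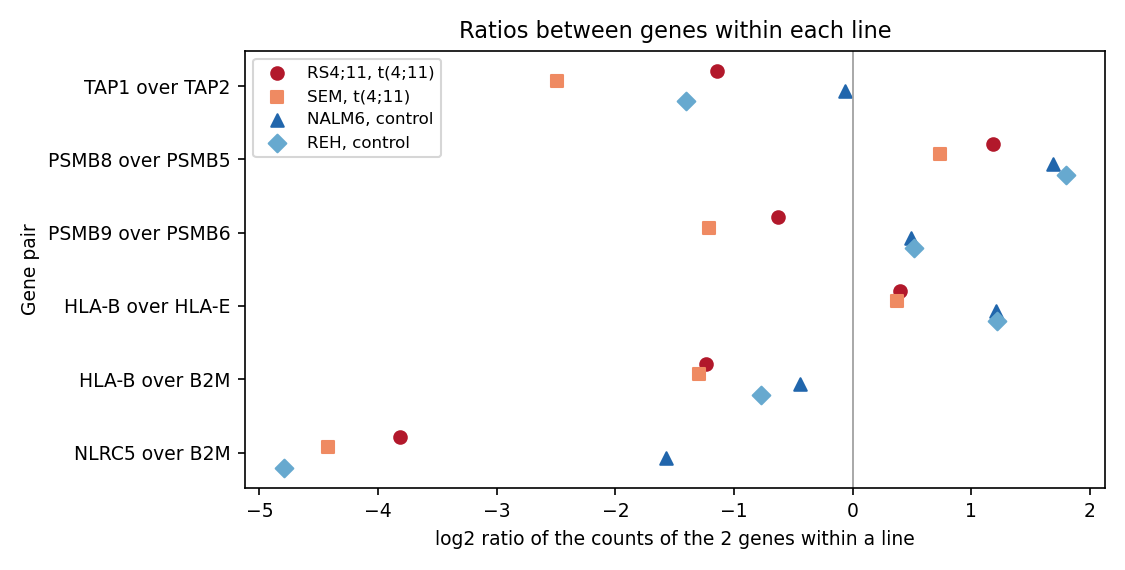
log2 ratio of the counts of 2 genes within each line (x axis) for 6 gene pairs (y axis), 1 point per line. The ratios of HLA-B to HLA-E are 0.40 and 0.38 in the translocation lines and 1.20 and 1.21 in the controls, whereas TAP1 over TAP2 and NLRC5 over B2M overlap.

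Among other class I and class I-like genes, 6 of 8 could be tested, with a median log2FC of -0.19. Of these, 1 was lower and 1 was higher in both translocation lines, on both scales, which is no more than the shares of all genes (28.3% and 19% by column sum). HLA-F, a nonclassical chain, stood at 61.9 CPM in REH, 32.8 CPM in NALM6, 23.6 CPM in RS4;11 and 12.9 CPM in SEM (log2FC -1.27, SE 0.52, adjusted p = 0.461 by edgeR). HFE, a class I-like regulator of iron uptake, overlapped between the groups (log2FC -0.53, SE 1.49), with 0.38 without RS4;11 and 0.68 without REH. MICB, a stress ligand of the NKG2D receptor, had a log2FC of 0.25 (SE 0.26). FCGRT, the class I-like heavy chain of the neonatal Fc receptor, went the other way, standing at 46.5 CPM (RS4;11) and 34.1 CPM (SEM), with NALM6 at 5.91 CPM and REH at 6.84 CPM. Its log2FC was 2.76 (SE 0.34, adjusted p = 0.292 by edgeR). The authors' deposited DESeq table called FCGRT higher (adjusted p = 0.00208), and the authors' deposited Cuffdiff table did not (q = 0.160). It was the only gene of the 5 further lists called in either deposited table.

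Peptide loading and trimming genes had a positive median log2FC of 0.34 over 12 genes. On CPM by column sum 7 of them were higher and 2 lower in both translocation lines, beside 19% and 28.3% of all genes. After TMM scaling the counts were 8 and 2, beside 24.2% and 23.4%. PDIA3 (ERp57), the thiol oxidoreductase that pairs with tapasin, stood at 408 CPM (RS4;11) and 447 CPM (SEM), with NALM6 at 259.9 CPM and REH at 229.9 CPM (log2FC 0.91, SE 0.16, adjusted p = 0.310 by edgeR). CALR, the chaperone calreticulin, had 642 and 593 CPM with the translocation and 496 and 323 CPM without it. ERAP2, an aminopeptidase that trims peptides, stood lower, with 21.0 and 98.5 CPM with the translocation and 195 and 153 CPM without it. Its log2FC of -1.45 (SE 0.81) was -2.93 without SEM and -0.73 without RS4;11. TAPBPL, a tapasin homologue, had a log2FC of -0.28 (SE 0.34). The remaining chaperones, CANX, HSPA5 and HSP90B1, were named after their values were seen and stood higher in both translocation lines, with log2FC values of 0.56 (SE 0.20), 0.69 (SE 0.31) and 0.38 (SE 0.20).

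Proteasome genes also had a positive median, 0.32 over 12 genes, of which 6 were higher and 1 lower in both translocation lines on CPM by column sum, and 9 and 1 after TMM scaling. Over all genes the shares higher and lower were 19% and 28.3% by column sum and 24.2% and 23.4% after TMM scaling. The 1 lower gene was PSMB9, the immunoproteasome subunit whose gene lies next to TAP1, standing at 42.5 CPM (RS4;11) and 31.4 CPM (SEM), with NALM6 at 81.2 CPM and REH at 75.8 CPM (log2FC -0.98, SE 0.25, adjusted p = 0.359 by edgeR). PSMB10, the third immunoproteasome subunit, encoded outside the MHC, was named after its values were seen: it had 71.6 and 87.7 CPM with the translocation and 73.6 and 65.9 CPM without it. PSMD1, of the regulatory cap, and PSMA7, of the outer ring, had log2FC values of 0.70 (SE 0.18) and 0.61 (SE 0.17). PSME1, of the activator induced by interferon, had 0.09 (SE 0.16), which turned to -0.0082 with column sums.

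Of 23 regulators of class I transcription, 9 were lower and 4 higher in both translocation lines on CPM by column sum (6 and 4 after TMM scaling), and the median log2FC was 0.04. Of all genes, 28.3% were lower and 19% higher by column sum, and 23.4% and 24.2% after TMM scaling. The count of lower regulators exceeded that share by column sum and lay near it after TMM scaling. STAT2, of the interferon response complex, stood at 38.9 CPM (RS4;11) and 46.3 CPM (SEM), with NALM6 at 97.9 CPM and REH at 84.8 CPM (log2FC -0.9996, SE 0.20, adjusted p = 0.320 by edgeR). JAK2, a kinase of interferon receptors, had a log2FC of -0.88 (SE 0.50), which was -1.54 without RS4;11 and -0.42 without SEM. EED, a polycomb subunit, had 0.62 (SE 0.19). IRF8, an interferon regulatory factor of B and myeloid cells, had 27.7 and 139.7 CPM with the translocation and 2.05 and 33.1 CPM without it, overlapping between the groups.

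Interferon-stimulated genes had a median log2FC of -0.51 over 15 genes, with 8 lower and 0 higher in both translocation lines on both scales. Of all genes, 28.3% were lower and 19% higher by column sum, and 23.4% and 24.2% after TMM scaling. IFIT1, an antiviral RNA-binding protein, stood at 1.45 CPM (RS4;11) and 0.803 CPM (SEM), with NALM6 at 6.96 CPM and REH at 13.5 CPM (log2FC -3.08, SE 0.73, adjusted p = 0.349 by edgeR). MX1, an antiviral GTPase, had 5.63 and 3.30 CPM with the translocation and 37.7 and 15.5 CPM without it (log2FC -2.46, SE 0.67). IRF9 had a log2FC of 0.45 (SE 0.53), and GBP2 one of 2.04 (SE 1.89), which was -0.43 without SEM and 5.31 without NALM6. EdgeR's quasi-likelihood test called 0 genes of these 5 lists. At an unadjusted p under 0.05 it gave 0 lower and 1 higher class I-like gene, 0 and 2 loading genes, 1 and 3 proteasome genes, 2 and 1 regulators and 3 and 0 interferon-stimulated genes, beside 5.87% lower and 6.18% higher of all genes.

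**Figure D4:**
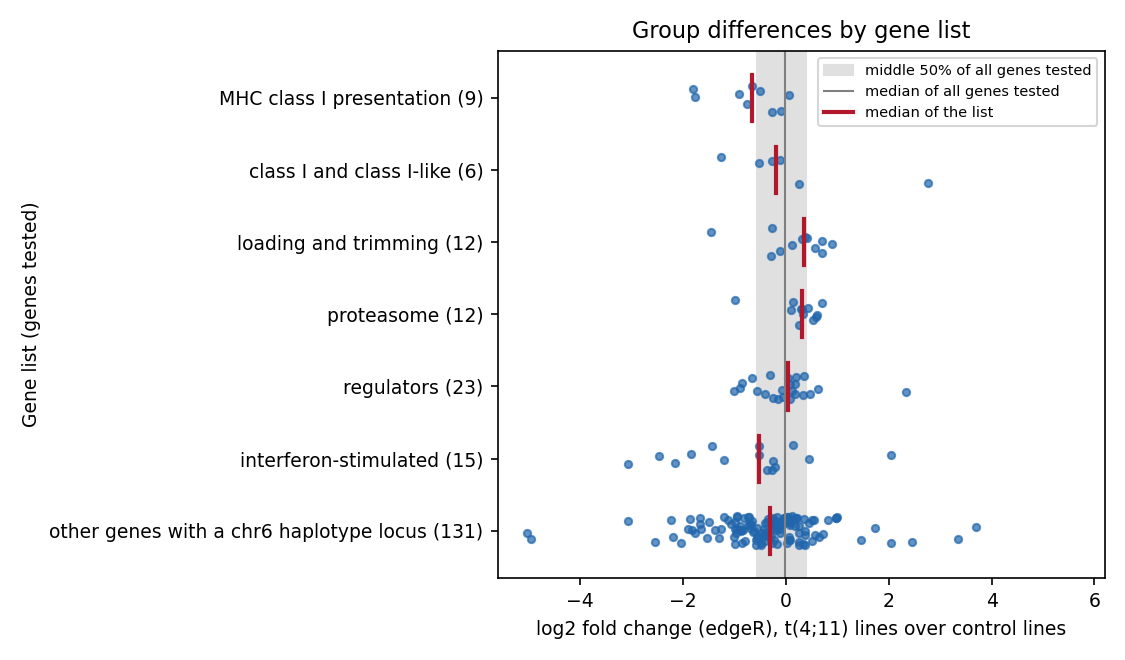
log2FC of t(4;11) over control lines (x axis) for the genes of each list (y axis, number tested in brackets), 1 point per gene, with the list median in red and the middle 50% of all tested genes in grey. The 9 class I presentation genes have a median of -0.66 and the loading and proteasome lists medians of 0.34 and 0.32.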

How the data were processed

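RNA-seq of 4 lines was used, 1 library per line, grouped by the labels. Tools listed in the submitters' processing notes are TopHat2 2.0.4, CASAVA 1.8.2, HTSeq, Cuffdiff and DESeq, with the build hg19 and no settings. Per the file headers, the deposited tables hold HTSeq counts per gene and line, DESeq normalized counts (a signal: counts divided by a size factor), a deposited fold change (a ratio, control over t(4;11)) with p-values, and Cuffdiff FPKM per group with a log2 fold change and q-values from the authors. The sign of the deposited fold changes was turned to t(4;11) over control. A TruSeq RNA kit of this kind does not mark strand, so overlapping genes are not separated.

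Counts were tested with edgeR 4.0.16 in R 4.3.3 (TMM, filterByExpr, glmQLFit, glmQLFTest, two-sided, Benjamini-Hochberg over 13,844 genes, threshold 0.05, 2 residual and 1.75 prior degrees of freedom). The SE is the fold change divided by the square root of F. DESeq2 1.42.0, edgeR's exact test, other scalings, no filter and leaving out each line were alternatives. The test was checked on simulated counts. A floor is 3 counts. Of each further list, the genes called in a deposited table and the 2 highest and 2 lowest fold changes at a mean of at least 1 CPM are named. A further class I gene is not reported here and was left out of its list after the results were known. Members and lists were chosen with earlier results of these data known. Transcript lengths are from GENCODE (GRCh38), matched by symbol with no coordinates carried over; figures used matplotlib 3.10.9 in Python 3.11.15.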

Additional observations from a re-analysis of the deposited data

How the results depend on the processing

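No paired analysis was possible because nothing in the labels pairs a line of 1 group with a line of the other. The quasi-likelihood test called 0 genes and none of the 9 under each scaling and without each line in turn. Without a filter on low counts it called 5 genes (PTPRR, XIST, MEIS1, TCF4 and CYBB, none of the 9). DESeq2 called 1593 genes, 2 of the 9 (HLA-B and TAP1) and 11 genes of the further lists, and edgeR's exact test called 441 genes and 1 gene of the further lists (FCGRT). The cause of these differences was not tested. With column sums in place of TMM, TAPBP had a log2 fold change of -0.039 and PSME1 of -0.0082. Leaving out 1 line at a time, with the lone line of its group assumed to vary like the other group, the log2 fold change ranged from -0.15 to 0.31 for TAPBP, from -2.58 to 0.28 for NLRC5, from -3.32 to 0.68 for HFE and from -0.43 to 5.31 for GBP2. The other 7 of the 9 genes stayed negative in all settings run, with medians over the 9 from -0.82 to -0.43 across the lines left out. Leaving out HLA-B, HLA-C and HLA-E, 4 of the other 6 genes were lower in both t(4;11) lines, fewer by construction. Without any 1 line, 7 to 8 of the 9 were lower in each remaining t(4;11) line than in each remaining control, where 39.4% to 45.3% of all genes tested were, an alternative chosen after seeing the data. With 2 lines a group, the number of lines and not read depth sets the intervals.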

Other observations

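Genes whose pattern over the 4 lines was most like that of the 9 were sought among all genes with a mean of at least 10 CPM, by the Euclidean distance between log2(CPM + 1) values centred on each gene's own mean. The mean centred profile of the 9 was -0.32 in RS4;11, -0.45 in SEM, 0.57 in NALM6 and 0.20 in REH. The nearest 5 genes were TECPR1 (distance 0.056), an autophagy protein, NME4 (0.063), a mitochondrial nucleoside diphosphate kinase, CDC25B (0.064), a cell-cycle phosphatase, PHF8 (0.068), a histone demethylase, and VPS13C (0.084), a lipid transfer protein. TECPR1 stood at 41.7 CPM in NALM6, 30.3 CPM in REH, 21.7 CPM in RS4;11 and 19.9 CPM in SEM. The genes nearest to NLRC5 were UNC13D, which primes cytotoxic granules for release, at a distance of 0.58, and TMEM181 at 0.63. UNC13D had 36.7, 25.7, 137 and 31.6 CPM in RS4;11, SEM, NALM6 and REH, high in NALM6 as NLRC5 was.

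The authors' deposited Cuffdiff table called 331 genes with a symbol in the count table, NLRC5 among them. For 79 of these (23.9%) the 4 lines overlapped between the groups in CPM, as they did for NLRC5 and for 52.7% of all genes tested.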
